A study of Mus musculus with 6 samples.

Results

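The genes described here are 37 mouse genes of glycolysis and glucose handling, chosen by name for their known function, with earlier results of these data known, and by no rule on their values. They cover glucose uptake, every step of glycolysis, lactate production and transport, and glycogen turnover. The pyruvate dehydrogenase complex is included with some of its kinases and a phosphatase. The hearts of 3 Pontin cTG and of 3 WT mice were profiled by RNA-seq, each as a library of its own. The transgene of the Pontin cTG mice is a human Pontin cDNA with a flag tag, driven by the αMHC promoter, so that it is meant for cardiomyocytes and not for the other cells of the heart. The WT mice are littermates without the transgene. All were male mice on a C57Bl/6 background, aged 10 weeks when put on angiotensin II (Ang-II). Both groups carried mini-pumps that released Ang-II for 14 days at a daily 1.5 mg per kg. The comparison is thus of genotype within Ang-II treated hearts. Hearts without Ang-II were not analysed here. The WT libraries held 13194038, 12436822 and 12772244 counts in all (replicates 1, 2 and 3, the order kept below), and the Pontin cTG libraries held 14584102, 15279201 and 16888124.

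The table lists 56748 genes and holds all 37 members in 38 rows, since *Aldoa* has a second, shorter row. Of the 37 genes, 36 passed the filter on low counts and were tested. *Aldoc*, the aldolase of brain, had 12 counts over the 6 libraries and was not tested, and neither was the shorter row of *Aldoa*, with 15 counts. Values are given as normalised counts, which are counts scaled by edgeR's TMM factors to libraries of a common size, and a log2 fold change compares Pontin cTG with WT. The mouse gene of Pontin, *Ruvbl1*, had 216, 221 and 217 normalised counts in WT and 250, 250 and 240 in Pontin cTG hearts. These counts are no measure of the transgene, whose human sequence need not align to the mouse gene.

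Glycolysis splits glucose into pyruvate in the cytosol. Pyruvate is then either reduced to lactate or carried into mitochondria, where the pyruvate dehydrogenase complex turns it into acetyl-CoA for oxidation. Pyruvate dehydrogenase kinases switch that complex off and the phosphatases switch it on. The healthy adult heart draws most of its energy from fatty acids, keeps a store of glycogen, and is known to rely more on glucose under pressure overload and hypertrophy.

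No glucose-handling gene passed the test for a difference between Pontin cTG and WT hearts. Of the 36 members, 0 were called at an adjusted p of 0.05 in edgeR's quasi-likelihood test after Benjamini-Hochberg adjustment, against 0% of all 13888 genes tested, and each had an adjusted p of 0.999. At an unadjusted p under 0.05 in edgeR there were also 0 of 36, beside 2.05% of all genes (1.02% higher and 1.03% lower), and DESeq2 gave 0 at either threshold. By the sign of the log2 fold change 16 members were higher and 20 lower in Pontin cTG hearts, a split that became 20 and 16 when counts were scaled by library size alone. That scaling also moved all genes tested, from 6976 higher and 6912 lower to 7802 and 6086. The median log2 fold change was -0.0072, beside 0.0013 for all genes tested, and single values ran from -0.45 for *Pdk3* to 0.38 for *Gapdh*. The 3 Pontin cTG values all lay above or all lay below the 3 WT values for 5 members, 3 higher and 2 lower. Of all genes tested, 8.33% had groups that do not overlap, 4.7% higher and 3.63% lower. The 5 were *Slc2a1*, *Aldoa* and *Ldha*, higher in Pontin cTG hearts, and *Slc16a1* and *Gbe1*, lower. For a single gene the exact permutation test cannot go below p = 0.1 with 3 mice against 3.

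**Figure D1:**
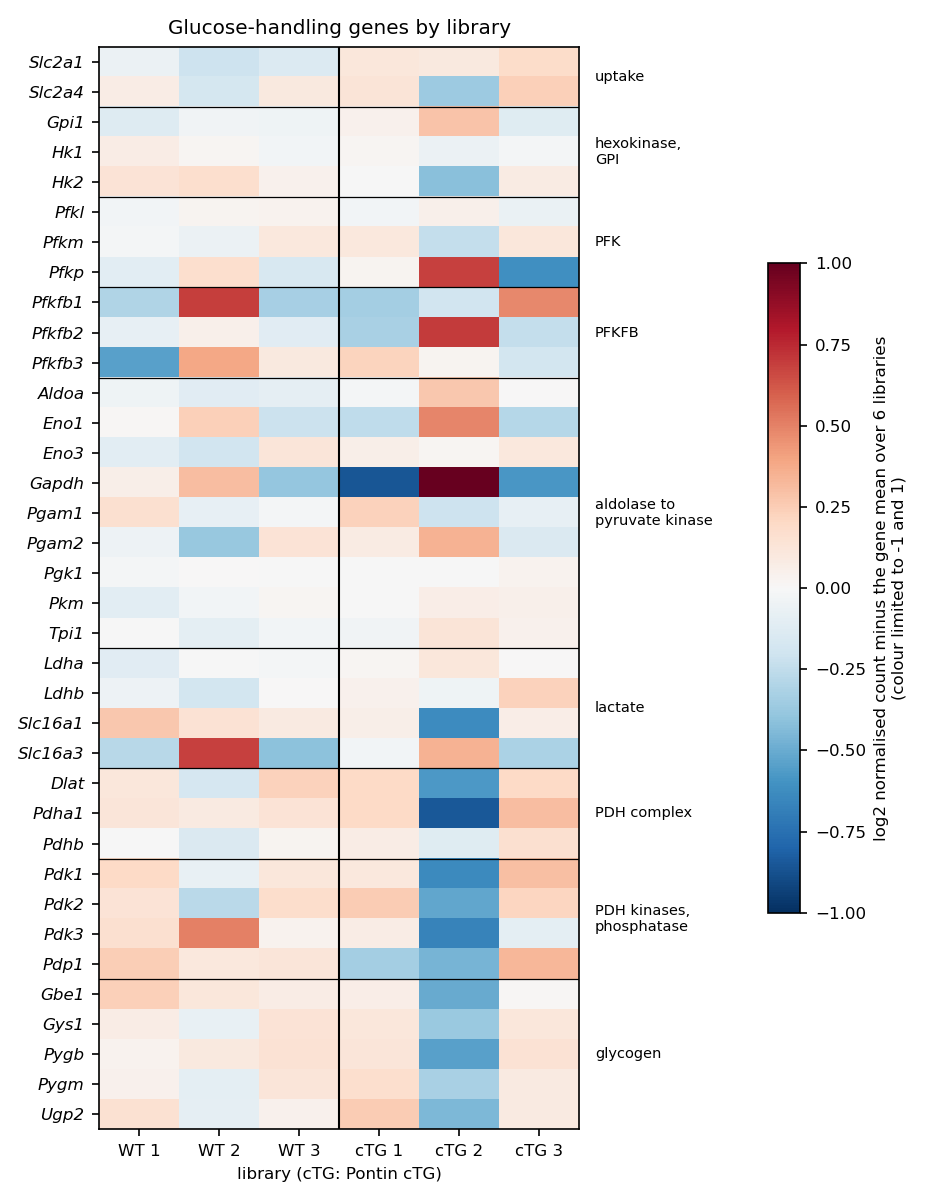
Each row is a glucose-handling gene and each column a library, and the colour is the log2 normalised count minus the mean of that gene over the 6 libraries, limited to -1 and 1. Pontin cTG replicate 2 holds most of the strong colours, with low values of the glycogen genes and of the pyruvate dehydrogenase kinases.

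A single library, Pontin cTG replicate 2, stood apart from the others. On the first principal component of the 1000 most variable genes, which held 50.1% of their variance, it scored 31.7, WT replicate 2 scored 16.4 and the other 4 libraries lay between -20.4 and -8.9. The paper's methods mention an outlier left out after principal component analysis but do not name it. For this comparison the paper gives as many mice per group as there are libraries here. Pontin cTG replicate 2 had the highest value of the 6 libraries in 11 members and the lowest in 17 (30.2% and 30.7% of all genes tested). It was thus the extreme library in 77.8% of the members, beside 60.9% of all genes tested. Without it, 24 members were higher and 12 lower, beside 6827 and 7151 of all genes tested. The median log2 fold change of the members was then 0.054, and 0 passed an adjusted p of 0.05 in edgeR, beside 0.0215% of all genes. An unadjusted p under 0.05 in edgeR was found for 1 member, lower in Pontin cTG hearts, beside 399 of 13978 genes on that side. Leaving out Pontin cTG replicate 3 instead also gave 1 member, lower, beside 181 of 14206 genes. Without Pontin cTG replicate 2, groups did not overlap for 14 members, 8 higher and 6 lower, beside 21.5% of all genes tested (11% higher and 10.5% lower). The largest distances of this library from the median of the other 5, on the log2 scale, were 1.84 in *Gapdh* on the high side and -0.98 in *Pdha1* on the low side.

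Marker genes of other cell types also varied between the libraries. The 8 fibroblast markers, all 8 tested with 4 higher and 4 lower, summed to 18711, 28507 and 16084 normalised counts in WT and to 18822, 28611 and 15060 in Pontin cTG hearts, with *Dcn* the most abundant. The 7 endothelial markers, 5 higher and 2 lower and led by *Fabp4*, summed to 19198, 19921 and 18711 in WT and to 18018, 25475 and 16927 in Pontin cTG hearts. The 7 atrial markers summed to 1890, 1257 and 2227 in WT and to 1632, 8151 and 822 in Pontin cTG hearts, with 4 of 7 tested and all 4 higher. The most abundant was *Nppa*, which ventricles also express under load, with 7716 in Pontin cTG replicate 2. The defining atrial genes *Myl7*, *Sln* and *Bmp10* had at most 6 counts in any library. The 8 markers of macrophages and monocytes, led by *Lyz2*, summed to 4954, 8440 and 5209 in WT and to 5432, 6090 and 4149 in Pontin cTG hearts, with 2 higher and 6 lower and a median log2 fold change of -0.42. Of these *Csf1r* had groups that do not overlap, lower in Pontin cTG hearts (beside 3.63% of all genes tested on that side), and *Mrc1* an unadjusted p of 0.0484 from edgeR (1.03% of all genes were lower at a p under 0.05). None passed the adjusted test. The part of these other cells in the values of the glucose-handling genes was not tested. In bulk heart tissue, fewer cells of a type and less RNA per cell cannot be told apart.

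The 10 cardiomyocyte markers, led by *Myh6*, summed to 732223, 836521 and 743007 normalised counts in WT and to 747728, 811448 and 720339 in Pontin cTG hearts, so heart muscle is present in every library. Of these 10 genes, 5 were higher and 5 lower and 0 were called in edgeR, but the groups of 4 did not overlap (beside 8.33% of all genes tested). *Tnni3*, *Myl2* and *Myl3* were the higher ones of these, with log2 fold changes of 0.30 (SE 0.14), 0.24 (SE 0.12) and 0.23 (SE 0.14). *Actc1* was the lower one, with -0.11 (SE 0.11). The part of these markers in the values of the glucose-handling genes was not tested. Several glycolytic isoforms of striated muscle are shared by heart and skeletal muscle. Of 9 markers of skeletal muscle, 0 passed the filter and 3 (*Myh1*, *Myh4* and *Tnnc2*) were at 0 in every library, and the 9 together had at most 30.8 normalised counts in a library.

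Glucose enters the cardiomyocyte through GLUT1, encoded by *Slc2a1*, and through the insulin-responsive GLUT4, encoded by *Slc2a4*. *Slc2a1* (ENSMUSG00000028645, GRCm38 chromosome 4 from 119108711 to 119137983) had 165, 149 and 157 normalised counts in WT and 186, 184 and 195 in Pontin cTG hearts. All 3 Pontin cTG hearts were above all 3 WT hearts, and replicate 2 did not stand apart in this gene. The mean of WT was 157 ± 8.01 and that of Pontin cTG hearts 188 ± 5.68 (SD, n = 3 mice per group). The log2 fold change of 0.26 had a standard error of 0.14 and the smallest p of all members (p = 0.0845 unadjusted and 0.999 adjusted, from the quasi-likelihood test of edgeR; exact permutation test, p = 0.1). It lay between 0.23 and 0.31 over the alternatives run for single genes, with adjusted p from 0.855 to 0.9999 across edgeR, DESeq2 and limma-voom. *Slc2a4* was far more abundant, with 3919 to 4721 normalised counts among WT hearts and 3438 to 5221 among Pontin cTG hearts, and its groups overlapped.

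The DNA just before the transcription start is shown for the 5 members whose groups did not overlap, as the stretch where transcription factors act. Each sequence is 200 bases, 5′ to 3′ on the strand of the gene, from RefSeq on GRCm38.p6, and ends at a RefSeq start, except that of *Slc2a1*, which ends 34 bases before it, where the GENCODE gene begins. *Aldoa* has 3 starts in the RefSeq table and *Ldha* 2, and the one nearest to the start of the main GENCODE transcript is shown. For both *Aldoa* and *Ldha* this start lies inside the interval given for the gene. Capitals mark ACGTG (the core that hypoxia-inducible factors and E-box proteins share, read as CACGT on the other strand), CACGTG (an E-box, which contains ACGTG on both strands) and GGGCGG (a GC box, CCGCCC on the other strand), and the bases of *Ldha* and *Gbe1* shown hold none of these.
*Slc2a1*, chr4:119108511-119108710, plus strand: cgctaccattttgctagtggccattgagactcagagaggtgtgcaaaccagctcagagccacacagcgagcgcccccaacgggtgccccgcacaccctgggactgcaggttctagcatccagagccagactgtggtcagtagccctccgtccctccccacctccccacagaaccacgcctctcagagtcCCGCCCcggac
*Aldoa*, chr7:126799255-126799454, minus strand: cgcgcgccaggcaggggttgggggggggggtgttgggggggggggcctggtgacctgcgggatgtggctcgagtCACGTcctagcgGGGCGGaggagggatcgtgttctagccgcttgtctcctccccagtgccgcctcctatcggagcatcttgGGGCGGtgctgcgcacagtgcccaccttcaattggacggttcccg
*Ldha*, chr7:46846882-46847081, plus strand: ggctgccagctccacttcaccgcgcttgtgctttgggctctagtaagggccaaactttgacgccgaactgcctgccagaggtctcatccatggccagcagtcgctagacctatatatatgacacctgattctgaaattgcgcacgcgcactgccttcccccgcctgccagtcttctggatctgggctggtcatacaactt
*Slc16a1*, chr3:104638464-104638663, plus strand: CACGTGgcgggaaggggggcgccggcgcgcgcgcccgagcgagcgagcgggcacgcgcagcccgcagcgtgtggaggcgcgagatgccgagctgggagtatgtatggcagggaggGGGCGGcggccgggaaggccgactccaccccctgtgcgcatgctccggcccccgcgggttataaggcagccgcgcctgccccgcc
*Gbe1*, chr16:70313749-70313948, plus strand: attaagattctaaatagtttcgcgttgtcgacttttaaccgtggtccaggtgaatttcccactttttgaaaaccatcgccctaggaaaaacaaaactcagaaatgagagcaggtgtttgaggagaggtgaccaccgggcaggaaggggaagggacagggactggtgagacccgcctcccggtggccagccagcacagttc

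Of the 37 members, 35 had a RefSeq promoter of 300 bases (250 before to 50 after the start, any start of the gene). ACGTG stood on either strand in 21 of them (60%), beside 29.1% of the 10257 tested genes with a promoter and 21.8% of all 27025 genes with one, counted in the same way (19.6% of the 32851 promoters taken singly). CACGTG stood in 6 (17.1%, beside 11.6% and 8.09%) and GGGCGG in 25 (71.4%, beside 68.1% and 38.2%). The MEF2 motif, bound by a muscle transcription factor, stood in 2 (5.71%, beside 2.44% and 3.70%), *Pfkfb1* and *Pgam2*. A match of letters is a description of the sequence and does not show that a factor binds there. Both members with groups lower in Pontin cTG hearts had a promoter, and *Slc16a1* held ACGTG while *Gbe1* did not. The members with higher groups, *Slc2a1*, *Aldoa* and *Ldha*, all held ACGTG, in *Slc2a1* and *Ldha* outside the 200 bases described above.

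Hexokinases trap glucose in the cell as glucose 6-phosphate, and phosphoglucose isomerase (*Gpi1*) turns it into fructose 6-phosphate. *Hk2* (chromosome 6 from 82725025 to 82774454), the hexokinase typical of adult muscle, had 4528, 4618 and 4238 normalised counts in WT and 4104, 3088 and 4363 in Pontin cTG hearts. The groups overlapped, and the lowest value was that of Pontin cTG replicate 2. Its log2 fold change was -0.21 (standard error 0.16), and -0.075 without that library. *Gpi1* had 6847, 7317 and 7269 in WT and 7740, 9138 and 6904 in Pontin cTG hearts, a log2 fold change of 0.15 (standard error 0.15) that was 0.036 without replicate 2, its highest library, and 0.24 without Pontin cTG replicate 3. *Hk1*, the more widely expressed hexokinase, stayed within 2659 to 2919 normalised counts in all 6 hearts.

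Phosphofructokinase commits fructose 6-phosphate to glycolysis and exists in muscle (*Pfkm*), liver (*Pfkl*) and platelet (*Pfkp*) forms. *Pfkm* (chromosome 15 from 98092589 to 98132451) had 13032, 12712 and 14205 normalised counts in WT and 14189, 11183 and 14296 in Pontin cTG hearts. These groups were nearly the same, at a log2 fold change of -0.010 (standard error 0.15), and 0.097 without Pontin cTG replicate 2. *Pfkp* (chromosome 13 from 6579768 to 6648777) had 1085, 1310 and 1042 in WT and 1188, 1876 and 764 in Pontin cTG hearts. Here the Pontin cTG hearts held both the highest and the lowest value of all 6, so that the WT mean of 1146 ± 144 (SD, n = 3) lies well within 1276 ± 561 (SD, n = 3). Its log2 fold change of 0.16 (standard error 0.28) became -0.23 without replicate 2. *Pfkl* ran from 1711 to 1855 in the 6 hearts.

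The PFKFB enzymes make and break fructose 2,6-bisphosphate, the main activator of phosphofructokinase, and *Pfkfb2* encodes the form typical of heart. *Pfkfb2* (chromosome 1 from 130689182 to 130729253) had 477, 523 and 466 normalised counts in WT and 402, 817 and 427 in Pontin cTG hearts. Pontin cTG replicate 2 was above every WT heart and the other Pontin cTG hearts were below every WT heart. On the log2 scale the fold change was 0.17 (standard error 0.25) with all libraries and -0.24 without replicate 2. *Pfkfb1* and *Pfkfb3* were low, at 85.9 to 176 and 94.7 to 181 normalised counts, with overlapping groups.

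**Figure D2:**
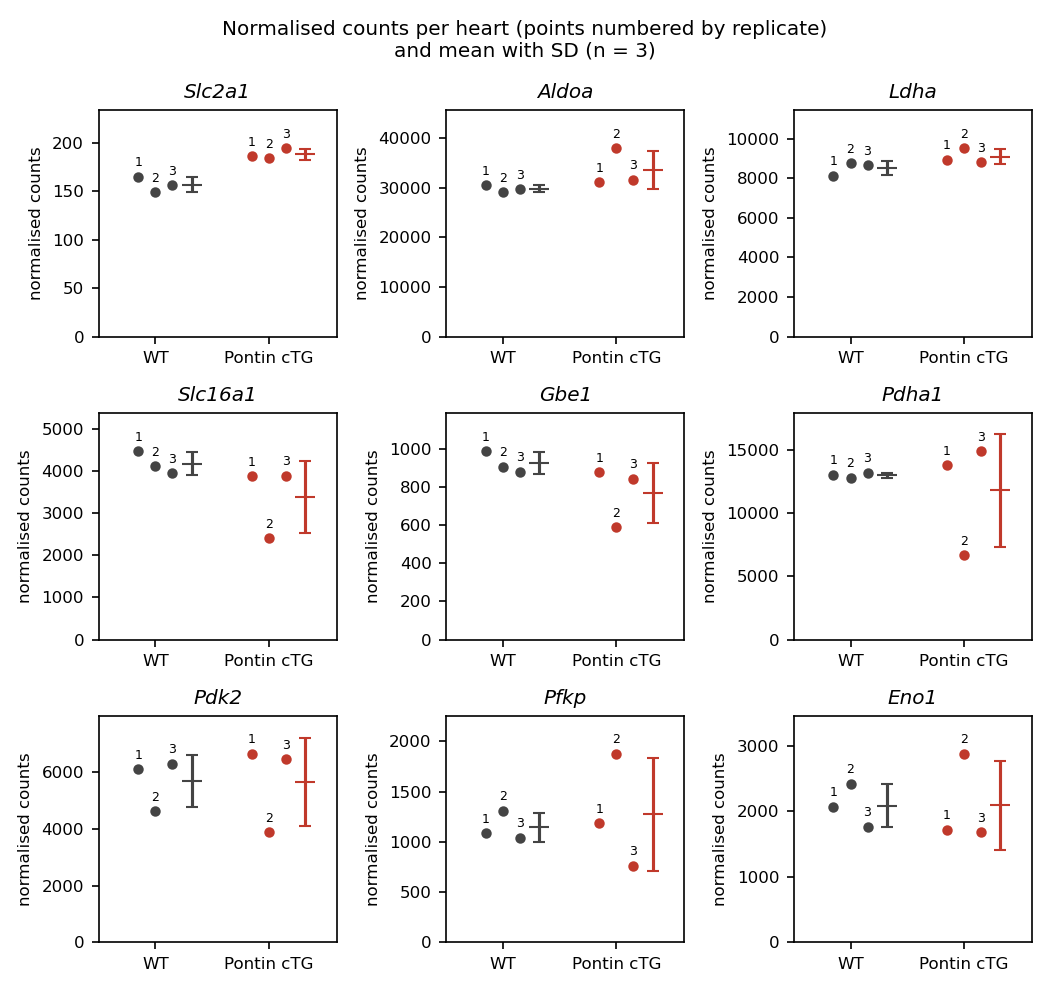
Points are normalised counts of single hearts, numbered by replicate, on axes that start at 0, with the mean and SD of each group (n = 3) to their right. *Slc2a1*, *Aldoa*, *Ldha*, *Slc16a1* and *Gbe1* are the members whose groups do not overlap. In *Pdha1*, *Pdk2*, *Pfkp* and *Eno1* the wide Pontin cTG bars come with replicate 2 far from the other Pontin cTG hearts. In *Pfkp* Pontin cTG replicate 3 is also the lowest of all hearts.

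From aldolase to pyruvate kinase, glycolysis splits the sugar and recovers ATP. Of the 9 members of this stretch tested, 8 had higher and 1 had lower values in Pontin cTG hearts, with 0 past the test and a median log2 fold change of 0.091. Without Pontin cTG replicate 2 these were 7 higher and 2 lower with a median of 0.057, and with limma-voom the median was 0.026. *Aldoa* (ENSMUSG00000030695, chromosome 7 from 126795234 to 126800751), the aldolase of muscle, had 30595, 29177 and 29713 normalised counts in WT and 31137, 38038 and 31640 in Pontin cTG hearts. All 3 Pontin cTG values were above WT, by a wide margin only in replicate 2. The mean was 29828 ± 716 for WT against 33605 ± 3847 (SD, n = 3 mice per group). The log2 fold change was 0.17 (standard error 0.14), and 0.074 without replicate 2.

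*Tpi1*, triosephosphate isomerase, had 8757, 8218 and 8632 normalised counts in WT and 8606, 9604 and 9065 in Pontin cTG hearts, at a log2 fold change of 0.091 (standard error 0.13) that was 0.050 when Pontin cTG replicate 2 was left out, 0.14 when replicate 1 of that group was, and 0.035 with the trend on gene length removed. *Pgam2*, the muscle phosphoglycerate mutase, had 6332, 5042 and 7212 in WT and 6950, 8313 and 5936 in Pontin cTG hearts, at a log2 fold change of 0.19 (standard error 0.19) that fell to 0.057 or 0.060 when replicate 2 of the Pontin cTG or of the WT hearts was left out. With replicate 3 of the Pontin cTG or WT hearts left out it was 0.30 or 0.32, and with the trend on gene length removed 0.077. Both groups of *Pgam2* were wide and overlapped over most of their range. *Eno3*, the muscle enolase, had 13739, 12958 and 16110 in WT and 15407, 15012 and 15932 in Pontin cTG hearts, at a log2 fold change of 0.11 (standard error 0.14). That of *Eno3* was 0.049 without WT replicate 2, 0.22 without WT replicate 3 and 0.024 with the trend on gene length removed. *Pkm*, pyruvate kinase of muscle, had 12740, 13482 and 13887 in WT and 13715, 14368 and 14247 in Pontin cTG hearts, at a log2 fold change of 0.078 (standard error 0.13) that was 0.048 without WT replicate 1. In each of these genes the difference between groups was smaller than or similar to its standard error. *Pgk1*, phosphoglycerate kinase, was the steadiest member of the stretch, from 5275 to 5467 normalised counts in all 6 hearts, and *Pgam1* ran from 715 to 969.

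*Eno1* (chromosome 4 from 150236721 to 150248879), the enolase found in most cells, had 2068, 2421 and 1767 normalised counts in WT and 1721, 2877 and 1685 in Pontin cTG hearts. The highest value was that of Pontin cTG replicate 2, and the other Pontin cTG hearts were below every WT heart. Its log2 fold change was 0.0064 (standard error 0.23) and became -0.29 without it. *Gapdh* (chromosome 6 from 125161715 to 125166467), glyceraldehyde 3-phosphate dehydrogenase, had 95.8, 114 and 70.4 normalised counts in WT and 50.8, 253 and 61.5 in Pontin cTG hearts, a log2 fold change of 0.38 (standard error 0.56) that turned to -0.73 without replicate 2. Its raw counts, 52 to 295 per library, stood beside at least 7326 for *Tpi1*, its neighbour in the pathway. The mouse genome holds many near-identical copies of *Gapdh*, and 3 pseudogene rows named for it had 45 counts in all. Reads that fit several copies may have been left out or split by the counting, so its level is uncertain, and this was not tested.

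Lactate dehydrogenase converts pyruvate and lactate into each other, with *Ldha* encoding the muscle-type and *Ldhb* the heart-type subunit. *Ldha* (ENSMUSG00000063229, chromosome 7 from 46841475 to 46855627) had 8137, 8753 and 8661 normalised counts in WT and 8933, 9528 and 8817 in Pontin cTG hearts. The groups did not overlap, but the lowest Pontin cTG heart and the highest WT heart were close together. The mean was 8517 ± 332 for WT against 9093 ± 382 (SD, n = 3 mice per group), and the log2 fold change 0.094 (standard error 0.13), or 0.060 without Pontin cTG replicate 2 and also 0.060 with the trend on gene length removed. *Ldhb* (chromosome 6 from 142490249 to 142507957) had 18225, 16625 and 18928 in WT and 19460, 18280 and 22083 in Pontin cTG hearts, a log2 fold change of 0.15 (standard error 0.14). Leaving out Pontin cTG replicate 2 gave 0.21, leaving out replicate 3 of the same group gave 0.074, and leaving out WT replicate 2 gave 0.10, while removing the trend on gene length gave 0.059.

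Monocarboxylate transporters carry lactate and pyruvate across the cell membrane, MCT1 (*Slc16a1*) being the main one in heart and MCT4 (*Slc16a3*) the one of glycolytic cells. *Slc16a1* (ENSMUSG00000032902, chromosome 3 from 104638668 to 104658462) had 4479, 4117 and 3944 normalised counts in WT and 3879, 2401 and 3885 in Pontin cTG hearts. All 3 Pontin cTG hearts were below WT, 2 of them by little and replicate 2 by much. The mean was 4180 ± 273 for WT against 3388 ± 855 (SD, n = 3 mice per group). The log2 fold change of -0.30 had a standard error of 0.20 and an adjusted p of 0.999 from edgeR. It was -0.11 without replicate 2 and -0.41 without replicate 3. *Slc16a3* was scarce, at 29.1 to 62.8 normalised counts, and its groups overlapped.

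The pyruvate dehydrogenase complex was followed through *Pdha1* and *Pdhb*, the subunits of its E1 enzyme, and *Dlat*, its E2 enzyme. *Pdha1* (chromosome X from 160122209 to 160138413) had 13063, 12799 and 13194 normalised counts in WT and 13793, 6674 and 14931 in Pontin cTG hearts. The WT hearts, at 13019 ± 201 (SD, n = 3), were close together, while Pontin cTG replicate 2 was far below every other heart and the other Pontin cTG hearts were above all WT hearts. The log2 fold change of -0.14 (standard error 0.27) became 0.14 without replicate 2. *Dlat* was also lowest in that library, at 4355 against 5767 to 7602 in the other 5, and *Pdhb* ran from 8086 to 9978. Without replicate 2 the log2 fold changes of these 3 genes lay between 0.13 and 0.16, beside a median of -0.0049 for all genes tested then, and 0 passed the test.

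Kinases and phosphatases set the activity of the complex, and the members among them are the kinases *Pdk1*, *Pdk2* and *Pdk3* and the phosphatase *Pdp1*. *Pdk2* (chromosome 11 from 95026258 to 95041354), an abundant kinase of heart, had 6120, 4628 and 6308 normalised counts in WT and 6660, 3884 and 6463 in Pontin cTG hearts. In both groups replicate 2 was the low one, and the log2 fold change was -0.0042 (standard error 0.23) with all libraries and 0.21 without Pontin cTG replicate 2. *Pdk3* (chromosome X from 93764607 to 93832201) was scarce, with 35.2, 44.9 and 32.4 in WT and 33.2, 19.7 and 29.5 in Pontin cTG hearts, and its log2 fold change of -0.45 (standard error 0.31) was -0.26 without replicate 2. *Pdp1* (chromosome 4 from 11958184 to 11966452) had 645, 586 and 591 in WT and 430, 393 and 686 in Pontin cTG hearts, at a log2 fold change of -0.27 (standard error 0.21). Pontin cTG replicate 3 was here the highest of all hearts and the other 2 Pontin cTG hearts the lowest, and the log2 fold change was -0.56 without replicate 3 and -0.12 without replicate 2. *Pdk1* had 2696 to 3253 among WT hearts and 1819 to 3483 among Pontin cTG hearts. The 4 genes, kinases and phosphatase alike, each had their lowest value in Pontin cTG replicate 2, as did 30.7% of all genes tested.

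Glycogen is built by glycogen synthase (*Gys1*) and the branching enzyme (*Gbe1*) from UDP-glucose made by *Ugp2*, and broken down by the phosphorylases of muscle (*Pygm*) and brain (*Pygb*). All 5 members had lower means in Pontin cTG hearts, with 0 past the test and a median log2 fold change of -0.081. All 5 also had their lowest value in Pontin cTG replicate 2, as did 30.7% of all genes tested. Without that library 4 were higher and 1 lower, with a median of 0.063. *Gbe1* (ENSMUSG00000022707, chromosome 16 from 70313949 to 70569716) had 991, 907 and 882 normalised counts in WT and 878, 591 and 845 in Pontin cTG hearts. All 3 Pontin cTG hearts were below WT, though replicate 1 lay just under the lowest WT heart. Its log2 fold change was -0.27 (standard error 0.17), and -0.11 without replicate 2. *Pygm* (chromosome 19 from 6384399 to 6398459) had 15146, 13772 and 15988 in WT and 16547, 11778 and 15659 in Pontin cTG hearts, at a log2 fold change of -0.030 (standard error 0.17) and of 0.11 without replicate 2. *Pygb* had 12224 to 13189 among WT hearts and 8171 to 13124 among Pontin cTG hearts, *Ugp2* 4224 to 4990 and 3292 to 5346, and *Gys1* 1512 to 1754 and 1233 to 1724.

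**Figure D3:**
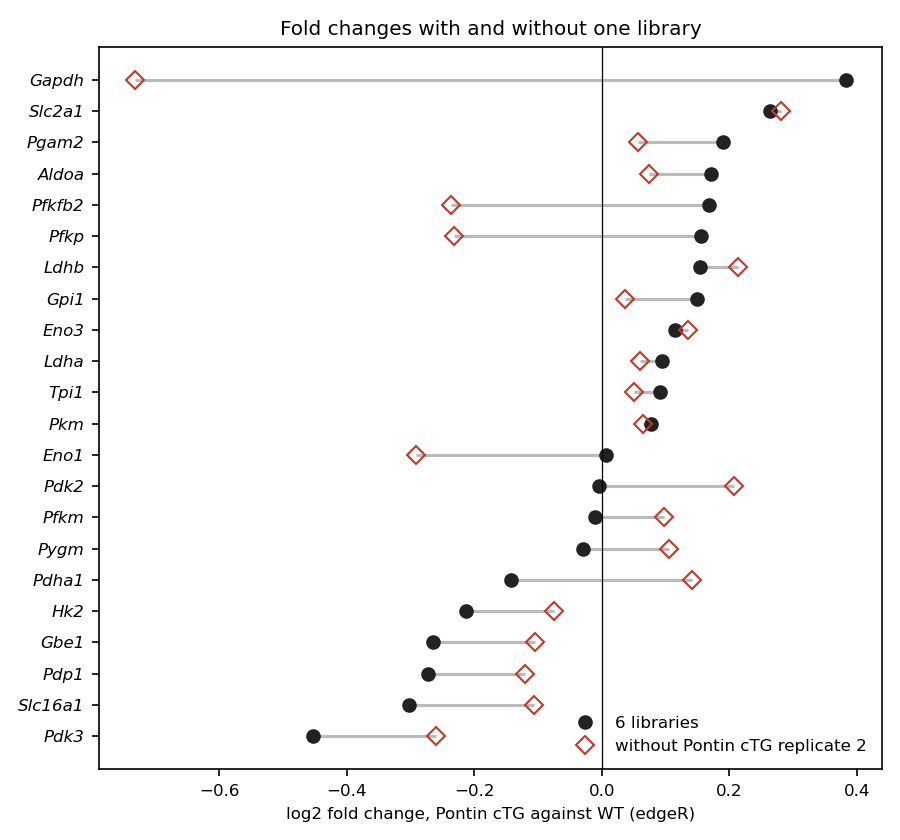
The log2 fold change of Pontin cTG against WT from edgeR is plotted for the 22 members whose fold changes are given in the text, with all 6 libraries (filled) and without Pontin cTG replicate 2 (open diamonds). *Gapdh*, *Pfkfb2*, *Pfkp*, *Eno1*, *Pdha1*, *Pdk2*, *Pfkm* and *Pygm* cross 0, while *Slc2a1* is at 0.26 and 0.28.

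In Pontin cTG replicate 2, members of different steps stood on different sides of the other libraries. In each library the median over a group of genes was taken of the log2 normalised count minus the gene's mean over the 6 libraries. For the glycogen genes this was -0.45 in Pontin cTG replicate 2 and between -0.075 and 0.12 in the other 5. For the genes of the pyruvate dehydrogenase complex it was -0.58 and between -0.14 and 0.20, and for its kinases and phosphatase -0.58 and between 0.017 and 0.26. The 9 genes from aldolase to pyruvate kinase had 0.13 in Pontin cTG replicate 2, the highest of the 6 libraries. Of the 9, 6 had their highest value there, beside 30.2% of all genes tested. Fatty acid oxidation, with 26 genes tested, had -0.32 in Pontin cTG replicate 2 and 0.27 in Pontin cTG replicate 3. Of the 26, 19 were at their lowest in Pontin cTG replicate 2, beside 30.7% of all genes tested.

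**Figure D4:**
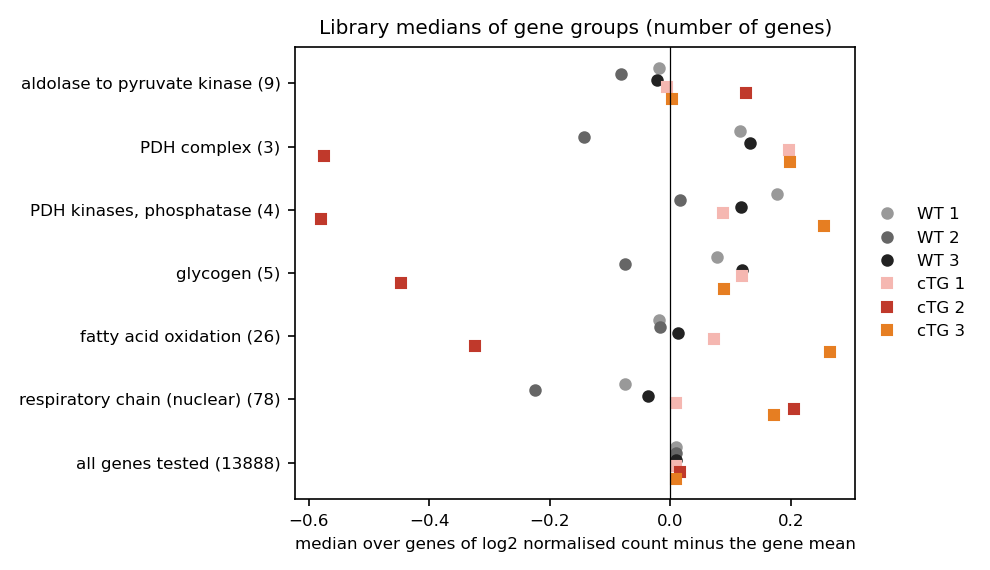
The axis is the median over each group of genes of the log2 normalised count minus the gene mean, and each symbol is a library. Pontin cTG replicate 2 is far to the left for the pyruvate dehydrogenase genes, the glycogen genes and fatty acid oxidation. It is to the right for the stretch from aldolase to pyruvate kinase and for the respiratory chain (0.21). Pontin cTG replicate 3 is also to the right for the respiratory chain (0.17) and for fatty acid oxidation (0.27).

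Gene length moved with the libraries. The Spearman correlation, across genes, of a library's deviation with the gene length given in the table was 0.18, 0.17 and 0.11 for the WT libraries and 0.082, -0.20 and -0.16 for the Pontin cTG libraries, and that of the log2 fold change with length was -0.31 over all genes tested and -0.21 over the 36 members. When a smooth trend on length was removed from each library, 17 members were higher and 19 lower, with 0 past the test (0% of all genes). Groups then did not overlap for 4 members (beside 6.97% of all genes tested, 3.85% higher and 3.12% lower), *Slc2a1* higher and *Slc16a1*, *Gbe1* and *Pgk1* lower, while *Aldoa* and *Ldha* overlapped. The 9 genes from aldolase to pyruvate kinase then had a median of 0.035 in place of 0.091. The part of length in the differences between groups was not tested otherwise.

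Levels of different genes were compared as normalised counts per kb of the gene length in the table. Among the members *Ldhb* had the highest mean level in WT, 11418 per kb, followed by *Aldoa* (10247), *Eno3* (8205), *Pgam2* (7376), *Pygm* (4652), *Pfkm* (3987) and *Pdha1* (3487). At the other end were *Slc2a1* (44.8), *Pfkfb1* (29.1), *Gapdh* (22.6, a level that is uncertain as described above), *Pfkfb3* (18.6), *Pdk3* (14.6) and *Slc16a3* (7.76). With the length of the main GENCODE transcript in its place, *Aldoa* led with 19741 per kb in WT, before *Ldhb* with 13747, and *Pdhb*, *Pkm* and *Tpi1* came before *Pygm*, *Pfkm* and *Pdha1*, so the order of levels depends on the length used.

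Within the pairs of isoforms compared, the muscle or heart form had the higher level in every heart on the scale of the table's length. With the length of the main transcript, *Hk2* was above *Hk1* in the WT means (809 against 731 per kb) and close to it in the Pontin cTG means (699 against 711). On the scale of the table's length, the ratio of *Pfkp* to *Pfkm* ran between 0.018 and 0.026 among WT hearts and was 0.021, 0.042 and 0.013 in the Pontin cTG hearts. The ratio of *Eno1* to *Eno3* ran between 0.035 and 0.060 among WT hearts and between 0.034 and 0.062 among Pontin cTG hearts, and that of *Ldha* to *Ldhb* between 0.21 and 0.25 and between 0.19 and 0.25. *Hk1* to *Hk2* ran between 0.43 and 0.45 among WT hearts and between 0.44 and 0.60 among Pontin cTG hearts. The top value was that of replicate 2, and the log2 difference between groups was 0.19, or 0.056 without that library. *Slc2a1* to *Slc2a4* ran between 0.033 and 0.038 among WT hearts and between 0.037 and 0.053 among Pontin cTG hearts, a difference of 0.26 on the log2 scale and of 0.096 without replicate 2. In all 9 ratios compared the groups overlapped, and the smallest p was 0.2 (two-sided exact permutation test, 0.9 after Benjamini-Hochberg adjustment over the 9). With the trend on gene length removed, the smallest p from the same test was 0.1, unadjusted, for *Hk1* to *Hk2*, at a log2 difference of 0.23.

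A further 74 genes of glucose use, which are not among the 37, were examined for the rest of the pathway. Of the 70 tested, 0 were called at an adjusted p of 0.05 and 0 had an unadjusted p under 0.05 in edgeR. By sign 21 were higher and 49 lower, a split of 29 and 41 with library size alone (7802 and 6086 for all genes tested). It was 37 and 33 without Pontin cTG replicate 2 (6827 and 7151 for all genes tested). The median log2 fold change of the 70 was -0.064, and it was 0.0077 without that library and -0.12 without Pontin cTG replicate 3. Of the 70, 36 had their lowest value in Pontin cTG replicate 2, beside 30.7% of all genes tested. Groups did not overlap for 2 of the 70, both higher, beside 8.33% of all genes tested (4.7% higher). *Mpc2*, a subunit of the mitochondrial pyruvate carrier, had 3223, 2827 and 3565 normalised counts in WT and 3828, 3722 and 4127 in Pontin cTG hearts, a log2 fold change of 0.28 (standard error 0.14). *Mpc1*, its partner, had 776 to 977 among WT hearts and 670 to 909 among Pontin cTG hearts, with groups that overlapped. *Taldo1*, transaldolase of the pentose phosphate pathway, had 970, 897 and 977 in WT and 984, 1000 and 1028 in Pontin cTG hearts, a log2 fold change of 0.083 (standard error 0.12).

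*Pdk4*, the pyruvate dehydrogenase kinase induced by fasting and fatty acids, varied widely between hearts. It had 9556, 10688 and 15370 normalised counts in WT and 18633, 4934 and 9768 in Pontin cTG hearts, so that the highest and the lowest heart were both Pontin cTG. *Pdpr*, the regulatory subunit of the pyruvate dehydrogenase phosphatase, had 1903, 1530 and 1838 in WT and 1800, 271 and 1534 in Pontin cTG hearts, the value of replicate 2 again being the low one. Both were picked after their values were seen.

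Other routes of energy supply give a frame for these values. Of the 26 genes of fatty acid oxidation tested, 14 were higher and 12 lower, with a median log2 fold change of 0.025. This median was 0.19 without Pontin cTG replicate 2, -0.015 without replicate 1 and -0.13 without replicate 3. Without replicate 2, and also with limma-voom, 23 were higher and 3 lower, while without replicate 3 there were 6 higher and 20 lower. Of the 78 nuclear genes of the respiratory chain tested, 75 were higher and 3 lower, with a median of 0.23. Groups did not overlap for 39 of them, all higher, beside 4.7% of all genes tested on that side. An unadjusted p under 0.05 in edgeR was found for 11 (beside 1.02% of all genes on that side) and an adjusted one for 0. The 11 became 0 without WT replicate 2, 3 without WT replicate 1, 5 with the trend on length removed, 6 with no filter on low counts, 19 with DESeq2, 25 with library size as the only scaling, and 3 or 18 when Pontin cTG replicate 3 or 1 was left out. These genes are short, with a median length of 1697 bases beside 4075 for the glucose-handling genes, and their median was 0.15 with the trend on length removed. A difference between these lists and the glucose-handling genes was not tested.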

How the data were processed

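The authors deposited raw counts per gene for 6 libraries in a single table, with a gene length in bases (another deposited value, used for levels per kb). The labels' processing notes name fastp, HISAT2, featureCounts and DESeq2 with GRCm39 (mm39), while the paper's methods name Trimmomatic, STAR and Gencode on mm10, and the table names no build. Of 52073 genes shared with the GENCODE M21 annotation of GRCm38 (the same build as mm10), 1472 had the same start and end in the table, so its coordinates were not taken from mm10. Columns were matched to samples by name (0 unmatched).

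Low counts were removed by filterByExpr at a minimum count of 10, TMM gave the scaling, and genotype was tested by the quasi-likelihood fit in edgeR 4.0.16 (robust, R 4.3.3) with Benjamini-Hochberg adjustment over all genes tested. The common biological coefficient of variation was 0.197, and every pair of libraries differed by more than sampling noise. Alternatives used DESeq2 1.42.0, limma 3.58.1 (voom with quality weights), other scalings and filters, protein-coding genes alone, no mitochondrial genes, a replicate block, a length trend (removed per library by a smooth curve) and each library left out in turn. The code was tested on simulated counts first. Deviations used a pseudocount of 0.5. Positions are those of GRCm38 (GENCODE M21, by Ensembl identifier). Promoters are from RefSeq, where 35 of the 37 members matched, and *Slc2a4* and *Pdp1* did not.

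Members, lists and tests were chosen with earlier results of these data known. Values in every library are given for members with groups that do not overlap, the 5 smallest p in each direction and the 10 highest levels per kb (17 genes); *Pdk2*, *Eno1*, *Pfkp*, *Pfkfb2* and *Gapdh* were added after their values were seen.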

Additional observations from a re-analysis of the deposited data

How the results depend on the processing

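0 glucose-handling genes passed an adjusted p of 0.05 in any alternative, and their median log2 fold change lay between -0.023 and 0.054. Among all genes, DESeq2 called 1, and 3 were called with no filter on low counts, with limma-voom, and with the length trend removed and without Pontin cTG replicate 2 together (added after seeing the data). With each library left out in turn the count ran from 0 to 3, the 3 being without Pontin cTG replicate 2.

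Signs turned for 8 of the 22 members with fold changes given, from *Pdk2* near 0 to *Gapdh* at 0.38. With library size alone *Pfkm* was at 0.013 and *Pdk2* at 0.014, with at least 10 counts in every library *Pdk2* was at 0.0011, and with no filter *Eno1* was at -0.0093. With limma-voom the log2 fold changes were 0.072 for *Pfkm*, -0.045 for *Pfkp*, -0.15 for *Pfkfb2*, -0.56 for *Gapdh*, -0.19 for *Eno1*, 0.044 for *Pdha1*, 0.090 for *Pdk2* and 0.063 for *Pygm*. With the length trend removed, the difference between groups (Pontin cTG minus WT) in the log2 ratio was 0.080 for *Pfkl* to *Pfkm* and 0.0072 for *Ldha* to *Ldhb*. The causes were not tested.

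With each library left out in turn, the log2 fold change ran from -0.069 to 0.097 for *Pfkm*, from -0.23 to 0.42 for *Pfkp*, from -0.24 to 0.36 for *Pfkfb2*, from -0.73 to 0.76 for *Gapdh*, from -0.29 to 0.14 for *Eno1*, from -0.35 to 0.14 for *Pdha1*, from -0.13 to 0.21 for *Pdk2* and from -0.12 to 0.11 for *Pygm*. The log2 difference of ratios ran from -0.36 to 0.47 for *Pfkp* to *Pfkm*, from -0.15 to 0.081 for *Pfkl* to *Pfkm*, from -0.42 to 0.031 for *Eno1* to *Eno3*, from -0.15 to 0.041 for *Ldha* to *Ldhb* and from -0.066 to 0.70 for *Slc16a3* to *Slc16a1*.

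The replicate numbers were not taken as a pairing, since the labels name no shared litter or batch. The deviations of same-numbered libraries had correlations of 0.064, 0.43 and 0.18, all positive. Libraries of different numbers were not compared in this way, so these values cannot decide whether the numbers hold a pairing. With the replicate block 0 genes were called, 499 had an unadjusted p under 0.05 in edgeR against 285 without it, and *Eno1* was at -0.028. With 3 hearts per group, small differences may be missed at this spread, and what size could be detected was not tested.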
